A study of Mus musculus with 6 samples.

Results

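The midbrain and hindbrain patterning factors described here are 10 mouse genes taken from a fixed list: En1, En2, Pax2, Pax3, Pax5, Pax8, Gbx2, Otx2, Irx3 and Irx5. They were followed through every array probe set annotated to exactly 1 of these symbols, which gave 13 probe sets for 9 of the 10 genes, out of 18193 genes with a probe set of their own on the array. Pax2 had 0 such probe sets and was not analysed here. Total RNA came from 6 neural stem cell lines, which the labels call independent, with 1 array per line. By their labels 3 lines are FoxO-null and the other 3 wild type. The labels name neither the FoxO alleles deleted nor the brain region, age or driver behind a line. The comparison of the groups asks which transcripts differ when FoxO, a family of transcription factors held out of the nucleus by insulin and growth factor signalling, is missing.

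Regional identity along the neural tube is laid down by transcription factors that neural stem cells can retain in culture. Otx2 marks the forebrain and midbrain and Gbx2 the anterior hindbrain, and the border between them becomes the isthmic organiser, a signalling centre that secretes FGF8 and WNT1. The engrailed genes En1 and En2 and the paired-box genes Pax2, Pax5 and Pax8 are switched on around that border, Pax3 marks the dorsal neural tube and the neural crest, and the Iroquois genes Irx3 and Irx5 are expressed behind the anterior forebrain and take part in placing its caudal borders.

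The deposited values are MAS5 signals, a linear measure of probe set brightness. An array's background was taken as the highest of its 27 Bacillus subtilis control probe sets, between 19.2 and 27.6 on the FoxO-null arrays and between 14.4 and 19.1 on the wild-type arrays, so the background was higher on the FoxO-null side. FoxO transcripts did not check the labels: 8 of 9 probe sets for Foxo1, Foxo3 and Foxo4 were brighter in the FoxO-null lines, and whether they fall inside the deleted sequence is unknown. Directions below follow the labels. All 12 neural stem and progenitor markers measured, among them Sox2 and Nes, were above background on all 6 arrays, whereas of 7 microglial markers 1, Csf1r, was above it on all 6 arrays and 5, among them Aif1 and C1qa, on none. Of the neural stem markers 9 of 12 had a positive log2 fold change. An unadjusted limma p under 0.05 was found for 5 of the 12, against 10.2% of all genes tested. At an adjusted p under 0.05, 1 was called, against 0.0395% of all genes. This was the Notch effector Hes5, higher in the FoxO-null lines (1.41 ± 0.15, limma adjusted p 0.0157). The call depended on the processing. With median centring, with no intensity trend or without FoxO-null 1, 0 genes were called, so Hes5 passed in none of these. The part of the neural stem markers in the results on the patterning factors was not tested. The wild-type 1 array stood apart, with an 18S rRNA 5′ control signal of 211 against 23.5 to 38.9 on the others and a summed neural stem marker signal of 25595 against 32541 to 35698. Fabp7 and Vim made up most of that sum, at 8864 and 9138 on wild-type 1. Sox2 was not lowest there, at 2148 against 1899 on wild-type 3. The mean of the 12 markers, each as log2 minus its own mean, was also lowest on wild-type 1, at -0.29.

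Promoter sequence from RefSeq (GRCm38.p6) was at hand for 7 of the 10 genes. The 250 bases before the start are shown for Irx3, Gbx2 and Otx2, because these genes, together with En2 and Irx5, had their highest signals in the same lines. Each is written 5′ to 3′ on the gene's strand, with any match to the 4 motifs searched in capitals. The motifs, searched on both strands, were GTAAACA (forkhead core, FoxO class), TAATTA (homeodomain core), TAATCC (bicoid-class core, bound by Otx factors) and CTTTGAT (TCF/LEF core).
Irx3, chr8:91801655-91801904, minus strand: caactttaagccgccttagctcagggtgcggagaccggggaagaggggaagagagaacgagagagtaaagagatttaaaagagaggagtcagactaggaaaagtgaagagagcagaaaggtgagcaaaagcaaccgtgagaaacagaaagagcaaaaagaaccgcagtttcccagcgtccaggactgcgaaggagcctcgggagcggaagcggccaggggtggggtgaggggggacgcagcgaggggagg
Gbx2, chr1:89931177-89931426, minus strand: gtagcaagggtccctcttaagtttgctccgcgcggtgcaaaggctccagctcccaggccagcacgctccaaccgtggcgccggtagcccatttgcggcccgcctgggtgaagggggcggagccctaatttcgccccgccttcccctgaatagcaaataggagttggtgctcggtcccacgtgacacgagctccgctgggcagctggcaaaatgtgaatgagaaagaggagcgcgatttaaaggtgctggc
Otx2, most upstream of 4 starts, chr14:48667645-48667894, minus strand: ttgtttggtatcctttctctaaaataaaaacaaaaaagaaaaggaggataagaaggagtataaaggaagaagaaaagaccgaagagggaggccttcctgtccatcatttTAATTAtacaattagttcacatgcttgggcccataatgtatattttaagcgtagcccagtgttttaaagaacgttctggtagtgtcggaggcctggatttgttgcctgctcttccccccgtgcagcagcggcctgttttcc
The Irx3 and Gbx2 windows held 0 matches to the 4 motifs, and the Otx2 window held 1 TAATTA, which begins 141 bases before the start. Another Otx2 start, at chr14:48665110-48665359, had 3 TAATTA and 1 TAATCC in its window. Of all 32851 promoter windows of this length, 4.84% held TAATTA, 6.25% TAATCC, 3.17% GTAAACA and 3.21% CTTTGAT. These letters are a description of the windows and say nothing of binding.

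Several of these factors differed widely between lines of the same group. En2, Otx2, Irx3 and Irx5 were all highest on wild-type 3 and next highest on wild-type 2, the remaining wild-type line was at or near the bottom for each, and none of the tested members differed between the groups past the threshold. Across the 7 members that passed the filter on low signals, the median range over the 6 arrays was 1.72 log2 units, against 0.67 for all 12665 genes tested. Ranges were also wide in other patterning lists, with medians of 1.58 for Hox genes and 1.40 for other Iroquois, Otx, Gbx and Pax genes. Midbrain and dopaminergic genes and dorsal neural tube and neural crest genes each had a median of 1.21. Hindbrain and cerebellar genes and forebrain genes each had 1.12, and isthmic organiser genes 0.92. Some of these ranges, that of En2 included, reach below background. Wide ranges were not particular to patterning genes. Cell type markers had medians of 1.42 (mesenchymal and meningeal), 1.12 (neural crest and Schwann cell), 1.11 (astrocyte) and 0.75 (neural stem). The other marker lists had medians of 1.24 (endothelial and pericyte, 2 genes tested), 0.90 (oligodendrocyte lineage) and 0.87 (neuron). The 1 microglial gene tested had a range of 0.57, below that of all genes. The value for all genes was not matched for signal level. The median spread between lines of the same group (SD, log2 scale) was 0.71, against 0.24 for all genes tested.

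**Figure D1:**
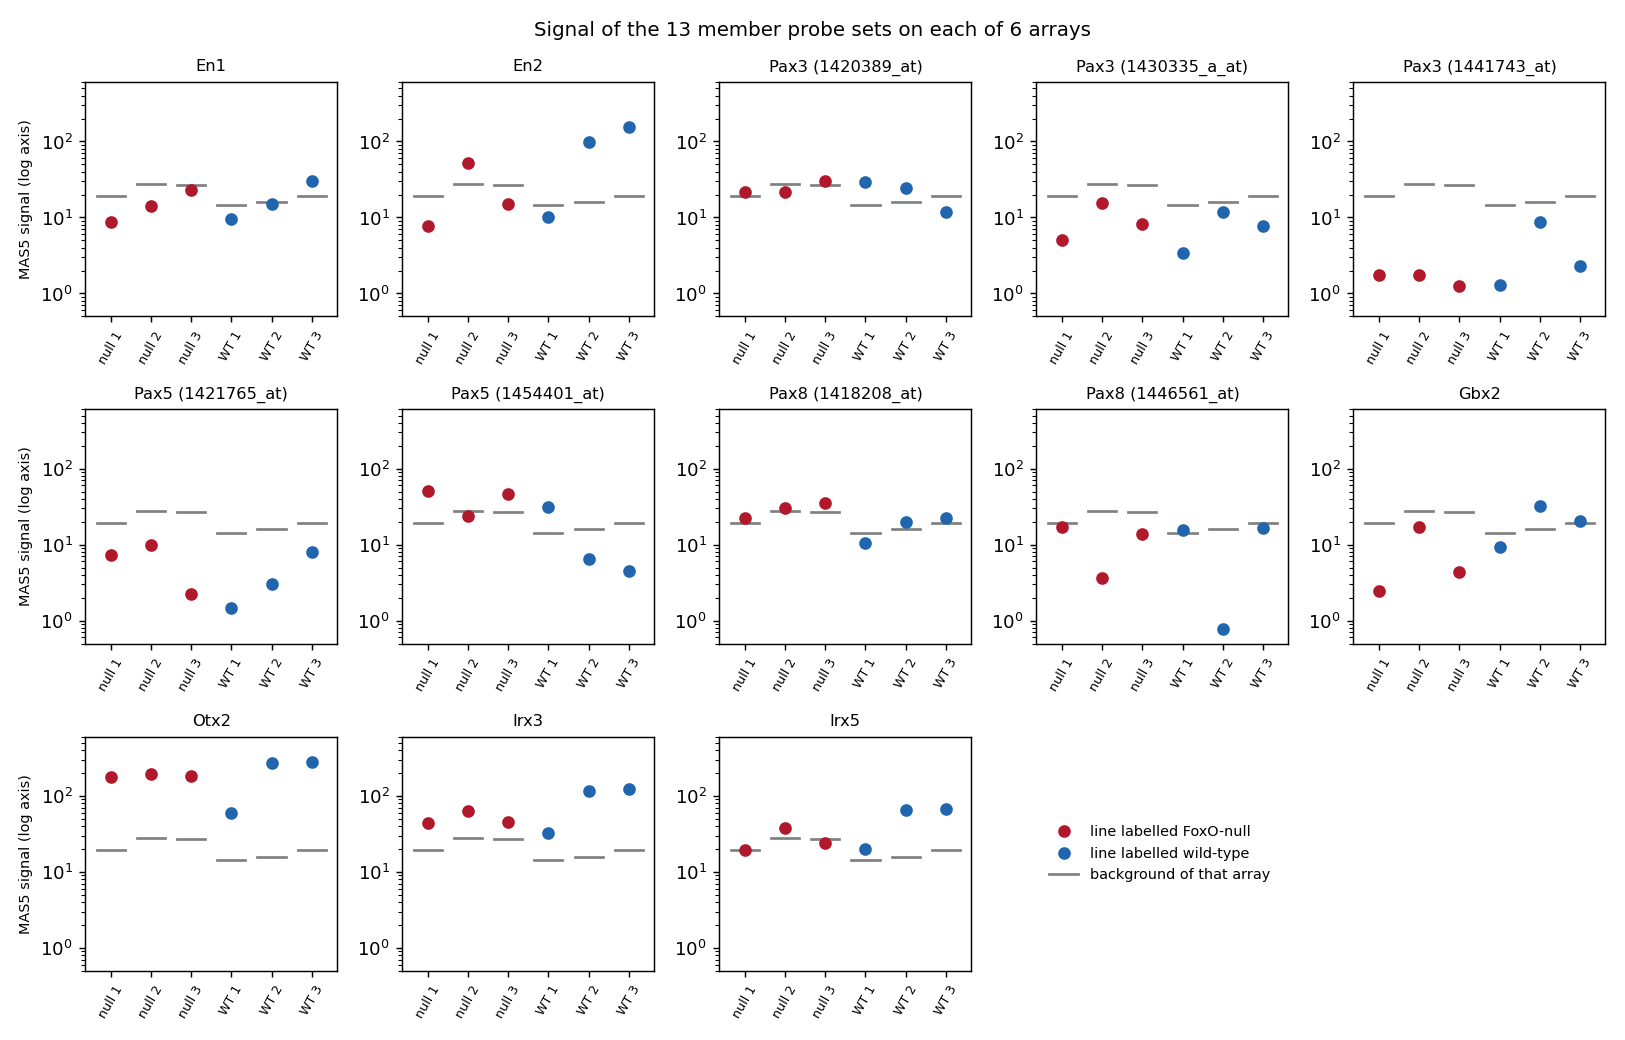
Signal of each of the 13 member probe sets (MAS5 signal, log axis) on the 6 arrays, red for lines labelled FoxO-null and blue for lines labelled wild-type, with a grey bar at that array's background. En2 was above background on 3 arrays, Otx2 and Irx3 on all 6, and 3 of the Pax probe sets on none; heights of different probe sets are not comparable with each other.

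En2 is a homeodomain repressor of the midbrain and cerebellar territory. Its signal was 7.76, 52.8 and 15.2 in FoxO-null lines 1 to 3 and 10.2, 97.3 and 154 in wild-type lines 1 to 3. It was thus above background in 3 lines, FoxO-null 2, wild-type 2 and wild-type 3, at 1.91, 6.14 and 8.03 times the background of their arrays, and at or below it in the other 3, so the groups overlapped. Wild-type 3 was at least 10.7-fold and wild-type 2 at least 6.75-fold above wild-type 1, whose signal was replaced by its background for these bounds. In the other group FoxO-null 2 was at least 2.75-fold above FoxO-null 1 by the same rule.

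En1, the other engrailed gene, was near background in every line. It read 8.83, 14.3 and 22.8 on the FoxO-null arrays and 9.49, 15.1 and 30.7 on the wild-type arrays. Wild-type 3 was the only line above its background, at 1.60 times that level, and the groups overlapped. En1 did not pass the filter, and no fold is given because all 3 FoxO-null arrays lay at or below background.

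Otx2, the homeodomain factor of forebrain and midbrain, was above background in every line. It read 177, 193 and 180.5 in FoxO-null lines 1 to 3 and 59.1, 274 and 279.6 in wild-type lines 1 to 3. The FoxO-null lines lay close together, between the low wild-type 1 line and the high wild-type 2 and 3 lines, and the groups overlapped. Wild-type 3 was 4.73-fold above wild-type 1, while the highest FoxO-null line was 1.09-fold above the lowest.

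Gbx2, the hindbrain partner of Otx2 at the border, was weak. It read 2.49, 16.9 and 4.38 on the FoxO-null arrays and 9.31, 32.0 and 20.4 on the wild-type arrays. Wild-type 2 and wild-type 3 were above background, at 2.02 and 1.07 times it, and the other 4 lines were not. FoxO-null 2 was the highest of the FoxO-null lines, as it was for En2, but stayed below its array's background. The group ranges overlapped, and no fold is given because all 3 FoxO-null arrays lay below background.

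Irx3 was above background in every line, with signals of 44.1, 62.3 and 44.7 in FoxO-null lines 1 to 3 and 32.8, 114 and 122 in wild-type lines 1 to 3. Irx5 read 19.3, 37.7 and 23.6 against 19.9, 64.4 and 67.0, and it was above background on 5 of the 6 arrays, FoxO-null 3 being the exception. Both Iroquois genes were highest in wild-type 2 and 3, followed by FoxO-null 2, and the groups overlapped because of the low wild-type 1 line. Wild-type 3 was 3.71-fold above wild-type 1 for Irx3 and 3.36-fold for Irx5.

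The Irx3 and Irx5 profiles were close to each other over the 6 lines. Likeness was measured as the root mean square difference of log2 values over the 6 arrays, after centring each gene on its own mean. Irx3 and Irx5 differed by 0.13 log2 units on this measure. Among the 12664 other genes tested Irx5 was the nearest to Irx3, and Irx3 was the third nearest to Irx5, where the median gene lay 0.69 from Irx3 and 0.68 from Irx5. The genes are neighbours on chromosome 8, with 0 protein-coding genes starting between them in the RefSeq annotation. With 12664 genes compared over 6 arrays, small differences arise for many genes, and this closeness was not tested.

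Other Iroquois genes, of which Irx1, Irx2 and Irx4 form a second cluster on chromosome 13, were partly alike. Irx2 read 15.0, 30.9 and 20.9 on the FoxO-null arrays and 15.4, 57.8 and 78.8 on the wild-type arrays, and lay 0.19 from Irx3 and 0.17 from Irx5. Irx1 read 37.8, 71.9 and 93.0 against 28.8, 72.1 and 90.4 and was less alike, at 0.51 from each, since FoxO-null 3 was its highest line. Irx4 was above background in 0 lines and Irx6, the neighbour of Irx5, in 2.

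**Figure D2:**
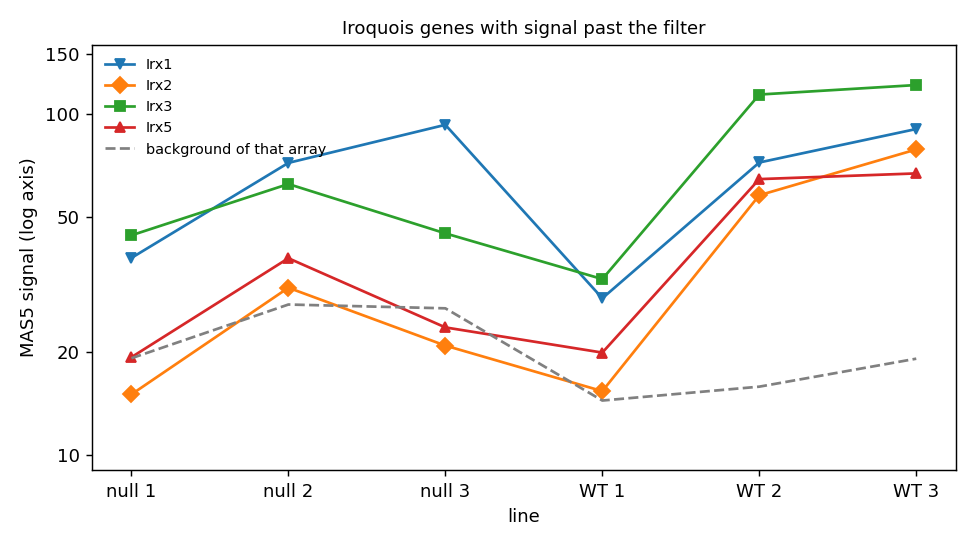
MAS5 signal (log axis) of Irx1, Irx2, Irx3 and Irx5 on the 6 arrays (null, FoxO-null; WT, wild-type), with the background of each array as a dashed line; lines join points of a gene and give no order to the cell lines. Irx2, Irx3 and Irx5 share low values on wild-type 1 and high values on wild-type 2 and 3, while Irx1 is highest on FoxO-null 3, at 93.0.

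Pax5, a paired-box factor known from the midbrain-hindbrain border and from B cells, ran the other way. The probe set of higher mean signal (1454401_at, which the annotation lists with no accession) read 50.9, 23.5 and 45.9 in FoxO-null lines 1 to 3 and 31.5, 6.48 and 4.48 in wild-type lines 1 to 3. It was above background in FoxO-null 1, FoxO-null 3 and wild-type 1, the 3 lines in which En2 was not, and lowest in wild-type 2 and 3. The groups overlapped through wild-type 1. The other Pax5 probe set (1421765_at) read between 1.49 and 9.90 and was below background on all 6 arrays, so the probe sets did not show the same pattern.

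Pax8, also switched on around the border, stayed near background. Its probe set of higher mean (1418208_at) read 22.5, 30.2 and 35.8 on the FoxO-null arrays and 10.5, 19.6 and 22.3 on the wild-type arrays. All 3 FoxO-null lines were above all 3 wild-type lines, but by a margin of only 22.5 against 22.3, and the readings were 1.10 to 1.33 times background in the FoxO-null lines and 0.73 to 1.24 times in the wild-type lines. This was the only one of the 13 member probe sets whose groups did not overlap, where 12.6% of all probe sets did not. The other Pax8 probe set (1446561_at) ranged from 0.770 to 17.0 and was above background on wild-type 1 alone.

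Pax3, the dorsal neural tube and neural crest factor, was also near background. Its probe set of highest mean (1420389_at) read 21.8, 21.9 and 30.3 on the FoxO-null arrays and 29.7, 24.1 and 11.7 on the wild-type arrays. The wild-type 3 line, the highest for En2, Otx2, Irx3 and Irx5, was the lowest for this probe set, and the groups overlapped. The other 2 Pax3 probe sets were below background on all 6 arrays.

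**Figure D3:**
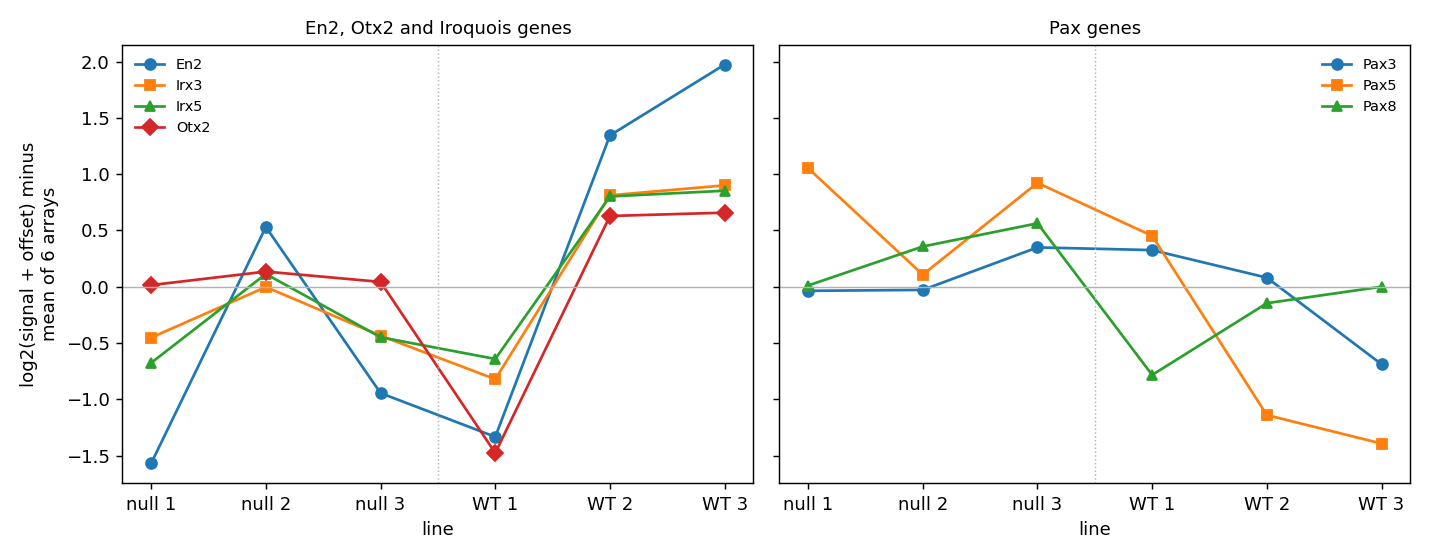
Log2 signal of the 7 members past the filter on each array, as log2(signal + 5.94) minus the gene's mean over the 6 arrays (null, FoxO-null; WT, wild-type; the dotted line parts the groups and the joining lines give no order). En2, Otx2, Irx3 and Irx5 are lowest or near lowest on wild-type 1 and highest on wild-type 2 and 3, where Pax5 is lowest, with both of those readings below background.

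Between the groups, no member passed the test. The fit used limma on log2(signal + 5.94) over 12665 genes, with a Benjamini-Hochberg adjusted p under 0.05 as the threshold and log2 fold changes as FoxO-null minus wild-type. It called 0 of the 7 members tested, against 0.0395% of all genes. At an unadjusted limma p under 0.05 there was 1 member, Pax5, against 10.2% of all genes. By signal, 1 of the 7 (Pax8) had groups that did not overlap, against 16% of all genes. Of the 7 members 4 had a positive and 3 a negative log2 fold change, with a median of 0.13 against 0.0098 for all genes tested. The sign of that median depended on the filter: it was -0.15 over 9 members with no filter and -0.23 over 2 members with a filter at the 60th percentile.

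The log2 fold change of every tested member but Pax5 was under 2 times its standard error. Pax5 had a log2 fold change of 1.39 ± 0.52 (SE), with mean signals of 40.1 ± 14.6 in FoxO-null and 14.2 ± 15.1 in wild-type lines (SD, n = 3 each) and a limma adjusted p of 0.391; wild-type 1 was the only wild-type line above background. En2 stood at -1.32 ± 0.75, from 25.2 ± 24.1 against 87.0 ± 72.3 (limma adjusted p 0.588). The Iroquois genes were both lower on average, Irx3 at -0.59 ± 0.40 (50.4 ± 10.4 against 89.6 ± 49.3, limma adjusted p 0.639) and Irx5 at -0.67 ± 0.42 (26.9 ± 9.63 against 50.5 ± 26.5, limma adjusted p 0.617). Otx2 was at 0.13 ± 0.44 (limma adjusted p 0.949), positive on the log2 scale although its mean signal was lower in the FoxO-null lines, at 183 ± 8.32 against 204 ± 126; the groups overlapped. Pax8 was at 0.62 ± 0.38 (limma adjusted p 0.613) and Pax3 at 0.19 ± 0.39 (limma adjusted p 0.910). A second limma fit, on 45037 probe sets with weak ones kept and controls left out, called 0 of the 13 member probe sets, against 0.00222% of all. At an unadjusted p it had 1, the brighter Pax5 probe set, against 7.24% of all, and it gave En1 and Gbx2 limma adjusted p-values of 0.973 and 0.753.

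The wild-type 1 line decided the size of several of these differences. Without it, the log2 fold change of Otx2 turned from 0.13 to -0.58 (limma adjusted p 0.195), that of En2 went to -2.32 (0.128), that of Irx3 to -1.15 (0.123) and that of Irx5 to -1.16 (0.267). For Pax5 no fold is given without wild-type 1 (limma adjusted p 0.191), since both remaining wild-type lines were below background. In that fit 0 of the 7 members passed, and 5 had an unadjusted limma p under 0.05, against 9.57% of all genes. The unadjusted count was 2 when FoxO-null 2 was dropped instead, and 0 for each of the remaining arrays. Leaving out wild-type 3 in place of wild-type 1 moved En2 to -0.67 and Irx3 to -0.29, and turned Pax3 to -0.11. The part of the high 18S rRNA control of wild-type 1 in its low Otx2 and Irx3 signals was not tested.

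**Figure D4:**
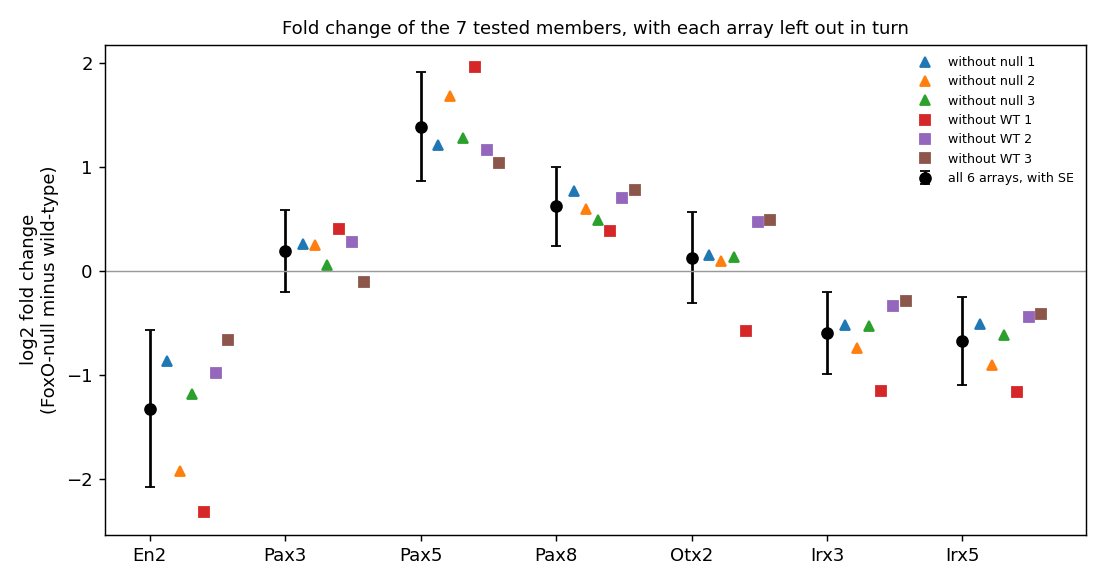
Difference of FoxO-null from wild-type lines (log2 fold change) of the 7 members tested, from all 6 arrays (black, with the standard error of the limma fit) and with each array left out in turn (triangles, FoxO-null arrays; squares, wild-type arrays). Leaving out wild-type 1 moves En2 to -2.32 and Otx2 below 0. The Pax5 values set signals partly below background against each other, and no point passed the adjusted threshold.

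Markers of other cells were set against the lines. Of 8 mesenchymal and meningeal markers measured, 2 were above background on all 6 arrays and 2, Twist1 and Dcn, on none; their summed signal ran from 148 to 207 in FoxO-null and from 124 to 268 in wild-type lines, with 238 on wild-type 2 and 268 on wild-type 3. The forkhead gene Foxc1 of that list read 70.6 and 45.6 on those arrays and between 13.8 and 18.9 on the others. The sum was highest in the lines highest for En2, Irx3 and Irx5, as were 4 of the 8 markers, among them Twist1, below background in every line. Of the others, 2 were highest on FoxO-null 3, among them Col1a1 at 47.4, and 2 on FoxO-null 2, among them Col3a1 at 26.2. Without Foxc1 the sum on wild-type 2 lay below those of FoxO-null 2 and FoxO-null 3. The part of the mesenchymal and meningeal markers in the result was not tested. Of 5 neural crest and Schwann cell markers 2 were above background on all arrays and 1, Foxd3, on none, and their summed signal was 687 to 904 in FoxO-null and 393 to 576 in wild-type lines. Most of that sum was Sox10, which is also an oligodendrocyte lineage gene, and the sums of the other 4 overlapped, at 72.6 to 132 in FoxO-null lines and 70.7 to 98.8 in wild-type lines. The summed signals of astrocyte and oligodendrocyte lineage markers did not overlap between the groups either, though 0 members were called in limma: 7 of 8 and 8 of 9 were above background on all arrays, with 1 of each list (Gjb6 and Mog) on none, and their summed signals were 5429 to 6543 and 14495 to 15669 in FoxO-null against 3551 to 5226 and 12652 to 14069 in wild-type lines. Of the members tested 6 of 7 and 6 of 8 had a positive log2 fold change. An unadjusted limma p under 0.05 was found for 4 of each list, against 10.2% of all genes tested. Mbp read 4141, 4846 and 4302 on the FoxO-null and 3612, 2463 and 2853 on the wild-type arrays. Without Mbp the oligodendrocyte lineage sums of the groups overlapped. The oligodendrocyte lineage factors Olig1, at -0.08 ± 0.12, and Olig2, at -0.18 ± 0.11, were negative. The part of these markers in the group differences of the members was not tested. Fewer cells of a type and less RNA per cell cannot be told apart in such bulk RNA.

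The isthmic organiser list held weak secreted signals and bright FGF feedback genes. Of 19 listed isthmic, FGF and WNT feedback genes, all with a probe set, 13 passed the filter and 11 were above background on all 6 arrays. In limma 0 were called in either direction (3 unadjusted). For comparison with this list and those below, 0.0395% of all genes tested were called and 10.2% had an unadjusted limma p under 0.05. The secreted signals Fgf8 and Fgf18 were above background in no line, and Fgf17 and Wnt1 in 1 each. Cnpy1, an FGF signalling gene of the midbrain-hindbrain border and the neighbour of En2 on chromosome 5, read 24.4, 18.7 and 19.1 on the FoxO-null arrays and 4.97, 51.0 and 80.0 on the wild-type arrays. Its 2 highest lines were those of En2, and it was the 28th nearest of 12664 genes to En2, at 0.82 against a median of 1.38. Among the FoxO-null lines Cnpy1 was above background in FoxO-null 1 alone, whereas En2 was above it in FoxO-null 2 alone. Il17rd, which encodes the FGF feedback inhibitor Sef, read 66.9, 85.7 and 61.5 against 25.8, 125 and 121 and was the third nearest gene to Otx2. Dusp6, a phosphatase that ERK signalling induces, read 472, 619.8 and 398 against 750.1, 831 and 1007, with a log2 fold change of -0.80 ± 0.17 and a limma adjusted p of 0.136. Lmx1b, a LIM homeodomain factor of the organiser, was highest on FoxO-null 3, at 58.2, and read 4.53 to 26.4 on the others.

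Forebrain factors were described beside these. Of 24 listed, 22 had a probe set, 10 passed the filter, 9 of those had a positive log2 fold change and 0 were called in limma (1 unadjusted), with a median of 0.28. Lhx2, a LIM homeodomain factor of cortex and eye, read 305, 248 and 221 in FoxO-null lines 1 to 3 and 221, 149 and 118 in wild-type lines 1 to 3 (0.68 ± 0.21, limma adjusted p 0.305). Its lowest lines were wild-type 2 and 3, the highest for Otx2 and the Iroquois genes. Dmrta2, a dorsal telencephalic factor, was also lowest there, at 66.5 and 80.2 against 105 to 170.1 on the other arrays. Dlx2 and Gsx2, ventral telencephalic factors, were both lowest on wild-type 3, the latter at 6.88 against 13.6 to 41.4 on the others. Not every forebrain gene of the list was low in these lines. Nr2f2 was highest on wild-type 2 and 3, at 190.5 and 188.6 against 97.9 to 166.4 on the other arrays. Otx1, the paralogue of Otx2, read 62.2, 37.1 and 25.7 against 71.4, 41.3 and 47.0, with its highest value in wild-type 1, the lowest line for Otx2. Pax6, the eye and cortex factor, stayed between 92.5 and 143.

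Midbrain dopaminergic, hindbrain and Hox genes did not part the groups past the threshold. Of 20 midbrain and dopaminergic genes 8 passed the filter and 0 were called in limma (1 unadjusted). The dopaminergic factor Nr4a2 read 47.6, 37.9 and 34.0 on the FoxO-null and 37.0, 8.94 and 20.1 on the wild-type arrays, its lowest lines being wild-type 2 and 3. Pitx3 was highest on FoxO-null 3, at 56.5, and Th, the dopamine synthesis enzyme, and the interneuron factor Dbx1 spanned 13.1 to 38.9 and 7.74 to 30.1.

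Of 22 hindbrain and cerebellar genes 10 passed the filter and 0 were called in limma (1 unadjusted). Zic1, a zinc finger factor of the dorsal neural tube and cerebellum, read 553, 510.0 and 590.5 against 112, 1039 and 663, and so shared with Otx2 its lowest line, wild-type 1, and its 2 highest lines, wild-type 2 and 3. Zic2 was lowest on wild-type 1 too, at 15.4 against 29.7 to 53.2. The retinoic acid receptor gene Rarb was highest on wild-type 3, at 50.1, where the ephrin receptor gene Epha4 was lowest, at 9.41.

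Of 30 Hox genes, which set position from the hindbrain backwards, 26 had a probe set, 6 passed the filter and 0 were called in limma (1 unadjusted). Hoxa9 read 13.6, 10.3 and 18.1 on the FoxO-null and 28.1, 51.2 and 32.1 on the wild-type arrays (limma adjusted p 0.354). All 3 FoxO-null readings were below the background of their arrays and all 3 wild-type readings above it, so no fold is given. Hoxc6 was lowest on wild-type 1, at 10.9, Hoxa3 was highest on wild-type 3, at 41.8, and Hoxd8 read 3.07 on wild-type 2 and 34.1 on FoxO-null 3. The high lines of En2 and Irx3 were thus shared by some of these genes and not by others. Of 20 dorsal neural tube and neural crest genes 10 passed the filter, 8 of them with a positive log2 fold change, and 0 were called in limma (3 unadjusted). Snai1 was lowest on wild-type 3, at 5.52, Ets1 was highest there, at 251, and Msx3 ranged from 2.95 to 38.2.

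The genes nearest in profile to the 3 members of widest range were listed by a fixed rule, with the same root mean square measure over 6 arrays and 12665 genes. For En2 these were Calml4, Pcdh8, Fmo1, Nrp2 and Fndc3c1, at 0.33 to 0.57 against a median of 1.38 for all genes. Nrp2, the semaphorin receptor gene neuropilin 2, read 29.9, 68.8 and 46.3 on the FoxO-null and 22.1, 161 and 143 on the wild-type arrays, above background in all 6 lines. Pcdh8, a protocadherin gene, read 20.6, 67.4 and 33.8 against 10.2, 117 and 135, from a probe set (1447825_x_at) whose type can cross-hybridise. The calmodulin-like gene Calml4 and the monooxygenase gene Fmo1 were above background in the same number of lines as En2, 3.

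For Otx2 the nearest genes were Rasa4, Cav1, Il17rd, Prelid3a and Tm6sf1, at 0.14 to 0.19 against a median of 0.75. Cav1, the caveolin gene, read 399, 447 and 321 on the FoxO-null and 137, 612 and 531 on the wild-type arrays. It was above background in every line, like Otx2, and lowest in wild-type 1. For Pax5 they were Cep126, Tmem102, Aldh8a1, Slit1 and Astl, at 0.23 to 0.33 against a median of 0.98. Slit1, an axon guidance ligand gene, read 38.1, 30.5 and 39.5 against 27.7, 12.8 and 4.61, lowest in wild-type 2 and 3 as Pax5 was. Pax5 and each of these nearest genes were below background in wild-type 2 and 3.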

How the data were processed

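Values are linear intensity signals as deposited; the submitters' processing notes name MAS5, with its version not given in the sources used here. Per the labels' protocols, 6 ug of total RNA went into each biotin-labelled cRNA. Each array's mean after trimming 2% at each end was 100, so the authors' scaling was kept. Array medians ran from 25.5 to 32.8, and 0 value columns were left out. No detection calls were used. Of 45101 probe sets, 64 were controls and 34945 had 1 annotated gene, 932 several and 9160 none. A gene was represented by its probe set of highest mean log2(signal + 5.94), with the offset set at the 20th percentile over the whole table; folds on this scale understate the change of weak genes. Genes with a mean under the 40th percentile (a signal of 16.2) were left out of the gene fit, and En1 and Gbx2 were among them. Groups were compared with limma 3.58.1 (R 4.3.3; lmFit, eBayes with intensity trend, two-sided, no covariates), checked on simulated data. Precision is limited by the number of arrays, and with 3 lines against 3 the smallest two-sided p of an exact permutation test is 0.1. The labels call the lines independent but name no animals, so p-values measure the spread between these lines. The members and lists were chosen with earlier results of these data known. Named were all members, the 5 genes nearest in profile to the 3 members of widest range, and from each pathway list the 4 genes of widest range past the filter. Irx4, Irx6, Cnpy1 as a neighbour of En2, Foxc1, Fgf8, Fgf17, Fgf18 and Wnt1 were singled out after their values were seen. Further genes were also named outside that rule with their values known. These were the forebrain gene Nr2f2 and marker genes, among them Hes5, Sox10, Mbp, Col1a1 and Col3a1. Alternatives changed the offset, filter, scaling, trend, probe set choice, replicate block and each array in turn. Plots were drawn with matplotlib 3.10.9.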

Additional observations from a re-analysis of the deposited data

How the results depend on the processing

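The count of members called in limma was 0 in all 15 alternatives run, for the genes and, in the 12 that apply, for the probe sets. Of 97 refitted log2 fold changes of single members 95 kept their direction and side of the threshold, and 2 reversed: Otx2 at -0.58 without wild-type 1 and Pax3 at -0.11 without wild-type 3. Leaving out each array in turn gave -0.58 to 0.49 for Otx2 and -0.11 to 0.40 for Pax3. The median of the members tested was 0.13, and -0.58 to 0.28 with an array left out; it was -0.15 with no filter (9 members), -0.23 with the stricter filter (2 members) and -0.63 with the mean of all probe sets of a gene (4 members past the filter). Over all genes the count called was 5, and 0 to 13 with an array left out. It was 1 with an offset of 1, with no filter, with quantile normalization or with the mean of all probe sets, and 0 with median centring (1048 unadjusted) or no intensity trend (1116 unadjusted). Over all probe sets it was 1, 0 to 1 with an array left out, and 0 with an offset of 16 (3252 unadjusted), with median centring (2847), with no intensity trend (2754) or with the replicate block (3444). The cause of these differences was not tested. Lines share replicate numbers across the groups, but deviations of same-numbered lines correlated at only 0.023, 0.091 and 0.12, and 5 of 6 lines were closest to their own number (not wild-type 1). As not every same-numbered correlation was over 0.1, the numbers were not taken as pairs; with the replicate block 0 members and 6 genes were called. Signals near the bacterial controls, as for En1, Gbx2, Pax3 and Pax8, limit what can be said of those genes.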
